A study of Arabidopsis thaliana with 4 samples.

Results

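The transcripts described here come from 43 photoreceptor and light signalling genes of Arabidopsis thaliana, selected by gene identifier from a table of 37885 genes. The list holds the phytochromes, cryptochromes, phototropins and the UV-B receptor, the COP1/SPA/DET1 repressors, and the transcription factors and proteins that act below them. All 4 libraries belong to 1 group, whole seedlings of the mutant line prt6-1hyt1-1, harvested untreated after 7 days in continuous light on agar plates lacking sucrose. PRT6 is known as a ubiquitin ligase of the N-degron pathway, which marks proteins for breakdown by their first residues, and what hyt1-1 alters is not stated. The columns of counts name hup40 where the labels name hyt1, so prt6-1 and the replicate number tied column to label. In the label of replicate 4 the name reads prt-16hyt1-1, taken as a misprint. The study set this line beside libraries of Col-0, prt6-1 and prt6-1erfvII. No genotype is compared here, since those other lines were not analysed.

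Plants read the colour, amount and direction of light with several families of receptor. In darkness the COP1/SPA ubiquitin ligase and DET1 keep factors such as HY5 scarce, while PHYTOCHROME INTERACTING FACTORs (PIFs) favour stem growth. Light acting through phytochromes, cryptochromes and UVR8 restrains the ligase, phytochromes remove PIFs, and HY5 and its BBX partners then promote greening and short stems.

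Replicates 1 to 4 had totals of 24743656, 26155431, 25804589 and 24947145 counts, and the members took between 0.193% and 0.208% of them. Of the members, 42 passed the expression filter, against 52.6% of the genes in the table. The member outside it was PIL1, with 6, 10, 9 and 11 counts. Summed CPM (counts scaled to library size) of 5 photosynthesis genes that mark shoots lay between 46092 and 49478, those of 5 root genes between 4847 and 5851, and those of 5 seed genes at 7.40, 116, 4.95 and 5.21. Shoot and root genes were therefore detected in every library, and seed genes stood highest in replicate 2. In whole seedlings, fewer cells of a type and less RNA per cell cannot be told apart. The labels call the libraries biological replicates, and the tests below ask whether these libraries differ by more than counting error.

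The promoters of 5 genes are shown because they carry the letters known as binding motifs of factors in the list, and belong to genes whose levels are set against each other below. Each is the 250 bases before the annotated start, taken from RefSeq's TAIR10.1 assembly and written 5′ to 3′ on the gene's strand. Capitals mark CACGTG, the G-box bound by HY5 and PIFs, and CACGCGC, the motif bound by FHY3 and FAR1. The FHY1 and FHL windows are chr2:15802794-15803043 on the minus strand and chr5:437115-437364 on the plus strand. Those of COP1 and PHYB, on the plus strand, are chr2:13977631-13977880 and chr2:8139506-8139755, and that of PHYD, on the minus strand, is chr4:9199841-9200090.
FHY1: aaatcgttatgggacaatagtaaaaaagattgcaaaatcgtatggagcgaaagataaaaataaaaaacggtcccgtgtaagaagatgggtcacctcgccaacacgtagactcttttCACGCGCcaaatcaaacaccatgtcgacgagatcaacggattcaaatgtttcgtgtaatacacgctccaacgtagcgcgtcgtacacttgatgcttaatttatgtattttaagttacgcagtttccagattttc
FHL: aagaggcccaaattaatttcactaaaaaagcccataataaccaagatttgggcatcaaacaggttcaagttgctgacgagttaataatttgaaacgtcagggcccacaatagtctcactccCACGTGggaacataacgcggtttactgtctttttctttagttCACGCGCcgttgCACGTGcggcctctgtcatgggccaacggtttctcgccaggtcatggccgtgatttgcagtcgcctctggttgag
COP1: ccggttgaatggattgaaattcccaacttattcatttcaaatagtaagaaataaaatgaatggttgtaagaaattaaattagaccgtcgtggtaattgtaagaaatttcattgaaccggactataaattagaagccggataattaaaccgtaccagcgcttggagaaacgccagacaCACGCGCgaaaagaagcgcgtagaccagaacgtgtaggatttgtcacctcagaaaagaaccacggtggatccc
PHYB: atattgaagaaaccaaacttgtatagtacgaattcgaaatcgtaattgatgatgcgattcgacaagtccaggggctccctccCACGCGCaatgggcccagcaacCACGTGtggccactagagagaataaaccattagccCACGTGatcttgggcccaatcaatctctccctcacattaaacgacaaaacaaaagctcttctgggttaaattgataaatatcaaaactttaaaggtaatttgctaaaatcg
PHYD: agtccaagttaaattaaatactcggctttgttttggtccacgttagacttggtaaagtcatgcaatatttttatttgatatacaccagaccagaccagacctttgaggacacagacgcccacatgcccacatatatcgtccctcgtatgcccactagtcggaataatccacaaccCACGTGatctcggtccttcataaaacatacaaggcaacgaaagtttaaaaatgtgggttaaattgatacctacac

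Both strands of all 43 windows were searched. The G-box was found in 7 of them (16.3%), those of CRY3, ELIP1, FAR1, FHL, PHYB, PHYD and PIF5, against 6.49% of 27443 promoters of protein-coding genes. FHL and PHYB held it at 2 positions each. CACGCGC was found in 4 windows (COP1, FHL, FHY1 and PHYB), against 1.06% of all promoters. CACATG, a motif that PIFs also bind, was found before HY5, PHOT1, PHYD and RUP2, against 11.1% of all promoters. GCCGCC, a motif bound by ethylene response factors, was found before HY5 and PHOT2, against 1.87% of all promoters. The GCCGCC matches before PHOT2 were at 2 overlapping positions, and matches of different motifs did not overlap. A match describes letters in this window and is not a measured binding site.

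Levels are given in TPM, a share of all transcripts in a library, for which counts were divided by the summed length of a gene's merged exons, and can be compared between genes. TPM values are the mean ± SD over the 4 libraries unless a value is given for each. The median level of the 42 members past the filter was 4.48 ± 0.04 on the log2 TPM scale, against 3.76 ± 0.03 for all 19940 genes past it. The median gene was exceeded by 29 members. BBX24 was the 1 member in the top 10% of genes with merged exon length. In the order from BBX24 at 102 ± 5.54 TPM to PIL1 at 0.336 ± 0.0745 TPM, the ranges of 32 of 42 neighbouring members overlapped. The gaps fell below BBX24, CRY1, PHOT2, PIF5, BBX22, PIF7, FAR1, PHYD, PIF6 and FHL. This order depends on the length used. With the median transcript length of each gene, PHOT2 stood at 93.0 TPM against 79.5 for PHOT1, and CRY2 at 70.1 against 69.4 for CRY1.

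**Figure D1:**
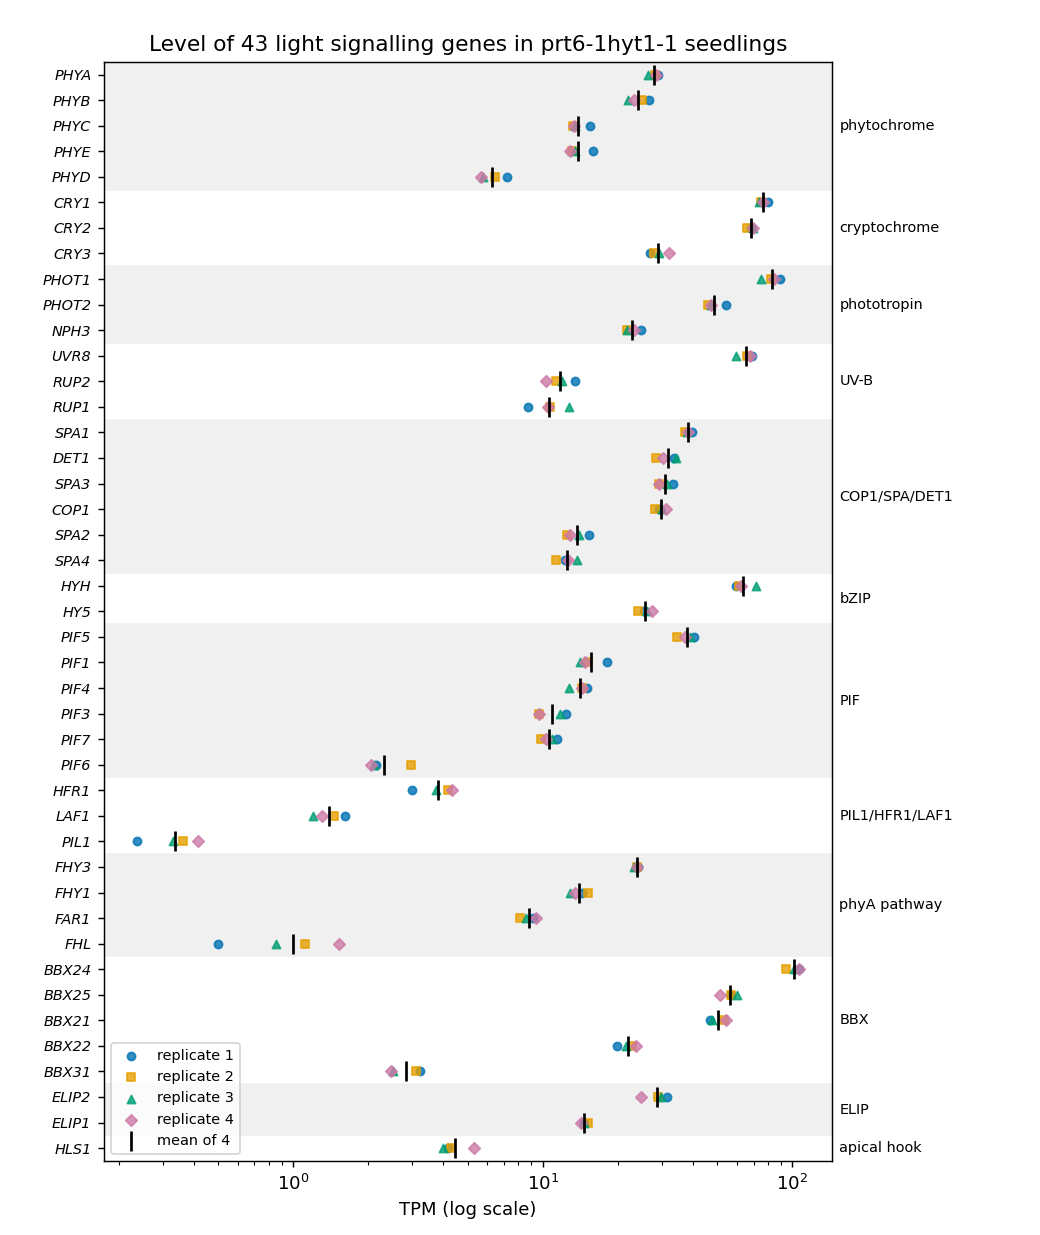
Level of each of the 43 members in TPM on a log axis, grouped by role, with a point for each of the 4 libraries and a bar at the mean. The members run from PIL1 at 0.336 TPM to BBX24 at 102 TPM, and most points of 1 gene lie close together beside the differences between genes.

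Counts were tested for homogeneity over the libraries by chi-square, with p-values adjusted by Benjamini-Hochberg over 20687 genes. The test called 24 of 42 members at an adjusted p of 0.05, which is 57.1%, against 42.8% of all genes tested. Of the 18595 genes between the lowest and highest member in CPM, 42.4% were called. Without replicate 1 the test called 13 members against 26.6% of genes, and the calls lost were those of PHYC, PHYD, PHYE, CRY3, PHOT2, RUP2, SPA2, PIF1, FHL, BBX21 and BBX22. Without replicate 2 it called 22 members against 35.2% of genes (BBX24 and PIF5 lost), without replicate 3 it called 20 against 30.9% (HYH, RUP1, SPA4 and UVR8 lost), and without replicate 4 it called 19 against 35.7% (BBX25, CRY3, ELIP2, FHL and RUP2 lost). The members' share therefore stood above the background with all libraries, at 24 of 42, and near it without replicate 1, at 13 of 42. This background is not matched for expression, since the 18595 genes are most of those tested. With merged exons of 2000 bases or more, 59.1% of 22 members and 44.3% of all genes past the filter were called. Below that length the shares were 55% of 20 members and 41.9% of genes. At 3000 bases or more, 49.8% of all genes were called. What part expression or length has in the members' share was not tested.

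Among the phytochromes, the red and far-red light receptors, PHYA and PHYB were the highest and PHYD the lowest. PHYA (AT1G09570), the receptor that far-red light acts through, had 2358, 2423, 2251 and 2330 counts and 27.9 ± 1.16 TPM. PHYB (AT2G18790), the main red light receptor of light-grown plants, had 1922, 1901, 1668 and 1684 counts and 24.2 ± 2.06 TPM. PHYA was the higher of these in every library, by 0.21 ± 0.08 on the log2 TPM scale, and it made up 32.5% ± 1.33 of the summed phytochrome TPM. PHYC (AT5G35840) had 934, 847, 855 and 813 counts and 13.9 ± 1.07 TPM, and PHYE (AT4G18130) had 986, 864, 881 and 809 counts and 13.8 ± 1.38 TPM. These differed by less than the spread between libraries, with a log2 ratio of 0.01 ± 0.04 that changed sign. PHYD (AT4G16250), the close relative of PHYB, had 482, 457, 404 and 383 counts and 6.27 ± 0.722 TPM, which put PHYB 3.86-fold higher. All 5 phytochromes were highest in replicate 1 in CPM, and 3 of them (PHYC, PHYD and PHYE) after the adjustment for transcript length described below. PHYB to PHYE varied by more than counting error, with adjusted chi-square p-values of 5.79e-06 for PHYB, 0.0181 for PHYC, 0.00584 for PHYD and 0.000276 for PHYE, while PHYA did not pass (0.210). After the length adjustment the adjusted chi-square p-values were 0.0314 for PHYB and 0.0297 for PHYE, and PHYC (0.161) and PHYD (0.105) did not pass.

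Of the cryptochromes, which absorb blue light, CRY1 and CRY2 were among the most abundant members and CRY3 stood lower. CRY1 (AT4G08920), which acts in stem growth under bright blue light, had 3850, 3808, 3707 and 3709 counts and 76.2 ± 2.97 TPM. CRY2 (AT1G04400), which also acts in flowering time, had 2960, 3032, 3181 and 3064 counts and 68.4 ± 1.83 TPM. CRY1 exceeded CRY2 in every library by 0.16 ± 0.07 (log2 TPM), but not when the median transcript length of each gene was used (-0.02). Neither passed the test, at adjusted chi-square p-values of 0.105 and 0.0957. CRY3 (AT5G24850), whose protein works in chloroplasts and mitochondria, had 822, 904, 938 and 985 counts and 29.0 ± 2.16 TPM. It was lowest in replicate 1 and varied beyond counting error (adjusted chi-square p = 0.0100).

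The phototropins, blue light receptors for bending towards light and chloroplast movement, were highest in replicate 1. PHOT1 (AT3G45780) had 5154, 5054, 4587 and 4938 counts and 82.6 ± 5.72 TPM, with replicate 3 lowest. PHOT2 (AT5G58140), the receptor of strong blue light, had 6140, 5511, 5609 and 5430 counts and 48.6 ± 3.79 TPM. Replicate 1 stood above the rest for PHOT2. The adjusted chi-square p-values were 2.51e-08 for PHOT1 and 1.91e-15 for PHOT2, the smallest among the members. With the adjustment for transcript length described below, they were larger, at 0.00585 for PHOT1 and 3.79e-05 for PHOT2. The order of these receptors depends on length. The merged exons of PHOT2 span 7121 bases against a median transcript of 3389, and with the latter PHOT2 reached 93.0 TPM and the PHOT1/PHOT2 log2 ratio turned from 0.76 ± 0.08 to -0.23. PHOT2 also overlaps the gene AT5G58150 on the opposite strand over 2760 exon bases. That gene had 475, 439, 418 and 419 counts, fewer than PHOT2. Reads in the shared bases may have been left out, so PHOT2's own level is uncertain if strand was not used. NPH3 (AT5G64330), which acts with phototropins in bending, had 1158, 1083, 1072 and 1101 counts and 22.9 ± 1.42 TPM, and its variation did not pass (adjusted chi-square p = 0.112).

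UVR8 (AT5G63860), the UV-B receptor, and RUP1 and RUP2, whose proteins return it to its inactive form, all varied by more than counting error. UVR8 had 2419, 2446, 2209 and 2402 counts and 65.5 ± 4.05 TPM, lowest in replicate 3. RUP1 (AT5G52250, chr5:21216772-21218351) had 218, 284, 336 and 266 counts and 10.6 ± 1.65 TPM. RUP1 was lowest in replicate 1 and highest in replicate 3, a 1.51-fold range in CPM. RUP2 (AT5G23730) had 327, 292, 307 and 254 counts and 11.8 ± 1.31 TPM, highest in replicate 1. The adjusted chi-square p-values were 0.00532, 0.000207 and 0.0329 in the order UVR8, RUP1, RUP2. The RUP1/RUP2 log2 ratio was -0.63, -0.08, 0.09 and 0.02 in replicates 1 to 4, so replicate 1 stood apart from the rest and the pair had no common sign.

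In the COP1/SPA/DET1 class, COP1 (AT2G32950), the ubiquitin ligase itself, had 1150, 1175, 1250 and 1246 counts and 29.7 ± 1.35 TPM. Its partner SPA1 (AT2G46340) had 2600, 2580, 2610 and 2531 counts and 38.1 ± 1.08 TPM. SPA1 was the highest of the class and exceeded COP1 in every library, the COP1/SPA1 log2 TPM ratio being -0.36 ± 0.07. SPA3 (AT3G15354) had 1870, 1752, 1861 and 1671 counts and 30.8 ± 1.87 TPM. SPA2 (AT4G11110) had 966, 840, 929 and 819 counts and 13.7 ± 1.26 TPM, and SPA4 (AT1G53090) had 624, 612, 736 and 648 counts and 12.5 ± 0.994 TPM. SPA1 was thus 2.79-fold above SPA2, and SPA3 2.47-fold above SPA4, with 1 sign in all libraries. DET1 (AT4G10180), which represses light responses in darkness through a related ligase, had 1035, 924, 1106 and 942 counts and 31.7 ± 2.79 TPM, higher in replicates 1 and 3 than in 2 and 4. SPA2, SPA3, SPA4 and DET1 varied by more than counting error, with adjusted chi-square p-values of 0.000576, 0.00115, 0.00653 and 9.61e-05. COP1 (0.146) and SPA1 (0.422) did not pass the chi-square test.

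HY5 (AT5G11260), the bZIP factor that COP1 targets, had 510, 511, 549 and 553 counts and 25.8 ± 1.35 TPM. Its homologue HYH (AT3G17609) had 732, 802, 924 and 775 counts and 63.6 ± 5.25 TPM. HYH exceeded HY5 in every library, with a log2 HY5/HYH ratio of -1.30 ± 0.12, and was highest in replicate 3. HYH varied by more than counting error (adjusted chi-square p = 0.000277), whereas HY5 did not pass (0.393).

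The PIFs spanned a wide range and were led by PIF5, which is named PIL6 in the table and made up 41.4% ± 1.44 of their summed TPM. PIF5 (AT3G59060) had 1644, 1495, 1671 and 1533 counts and 37.8 ± 2.49 TPM. PIF4 (AT2G43010), a PIF of warm temperature and shade, had 621, 629, 553 and 600 counts and 14.1 ± 0.987 TPM, and the log2 PIF4/PIF5 ratio was -1.42 ± 0.15. PIF1 (AT2G20180, PIL5 in the table), which restrains seed germination in darkness, had 675, 602, 551 and 558 counts and 15.6 ± 1.78 TPM. PIF3 (AT1G09530), a PIF that maintains dark growth, had 544, 450, 540 and 430 counts and 10.9 ± 1.40 TPM. PIF3 and PIF5 were high in replicates 1 and 3, while PIF1 was high in replicate 1. PIF7 (AT5G61270), a PIF of shade responses, had 354, 324, 356 and 322 counts and 10.6 ± 0.692 TPM, and its ratio to PIF3 changed sign between libraries (0.03 ± 0.10 on the log2 scale). PIF6 (AT3G62090, PIL2 in the table) was the lowest, with 61, 90, 63 and 59 counts and 2.32 ± 0.438 TPM. PIF6 overlaps the noncoding gene AT3G09745 on the opposite strand over 1525 exon bases, and that gene had 27, 12, 18 and 14 counts. PIF6 also shares 231 exon bases with the protein-coding gene AT3G62080 on the opposite strand, which had 340, 296, 348 and 293 counts. PIF6's own level is therefore uncertain if strand was not used. PIF1, PIF3 and PIF5 varied by more than counting error (adjusted chi-square p = 0.00133, 0.000132 and 0.00115). PIF4, PIF6 and PIF7 did not pass (0.189, 0.0862 and 0.330), and all but PIF6 were highest in replicate 1.

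PIL1 (AT2G46970), HFR1 and LAF1, which include transcripts known to rise in shade or to act in far-red light, were low. HFR1 (AT1G02340), an atypical bHLH protein that restrains PIFs, had 72, 107, 95 and 106 counts and 3.82 ± 0.605 TPM. PIL1 (chr2:19295431-19297858) lay below HFR1 in every library, by 3.52 ± 0.11 on the log2 TPM scale. Both were lowest in replicate 1. LAF1 (AT4G25560), a MYB factor of far-red responses, had 28, 27, 22 and 23 counts and 1.40 ± 0.176 TPM. LAF1 shares 82 bases with AT4G25570 on the opposite strand, which had between 3645 and 4270 counts, so LAF1's own level is uncertain if strand was not used. Neither HFR1 (0.115) nor LAF1 (0.822) passed the adjusted chi-square test.

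FHY1 and FHL carry phytochrome A into the nucleus, and FHY3 and FAR1 are the factors that switch both genes on. FHY1 (AT2G37678) had 241, 271, 227 and 229 counts and 14.0 ± 1.03 TPM. FHL (AT5G02200, chr5:437365-439019) had 12, 29, 22 and 38 counts, or 0.501, 1.11, 0.857 and 1.53 TPM. FHL was lowest in replicate 1 and highest in replicate 4, a 3.13-fold range in CPM that was the widest of the 42 members tested. Its variation passed the test (adjusted chi-square p = 0.0101) on few counts, and not without replicate 1 or without replicate 4. FHY1 exceeded FHL by 4.84, 3.77, 3.91 and 3.15 on the log2 TPM scale in replicates 1 to 4, a wider spread than in any other of the 19 pairs. The size of this gap depends on length, with a mean of 3.92 for merged exons and 3.27 for median transcript length. FHY3 (AT3G22170) had 1277, 1344, 1303 and 1286 counts and 23.8 ± 0.331 TPM, with a coefficient of variation of 0.900% in CPM, the smallest of all members, and an adjusted chi-square p of 0.965. FAR1 (AT4G15090) had 513, 482, 506 and 535 counts and 8.81 ± 0.595 TPM, 2.71-fold below FHY3, and did not pass (adjusted chi-square p = 0.300). FHY1 did not pass either (0.349). The FHY1 and FHL windows printed above each hold CACGCGC.

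The B-box (BBX) proteins tune HY5, and BBX21 and BBX22 are known to favour it while BBX24 and BBX25 oppose it. BBX24 (AT1G06040, STO in the table) had 2487, 2351, 2499 and 2521 counts, lowest in replicate 2. BBX25 (AT2G31380, STH) had 1141, 1219, 1279 and 1043 counts and 56.3 ± 3.77 TPM, lowest in replicate 4. BBX24 exceeded BBX25 in every library by 0.86 ± 0.15 (log2 TPM). BBX21 (AT1G75540) had 1169, 1405, 1258 and 1366 counts and 50.4 ± 3.64 TPM, and BBX22 (AT1G78600, LZF1) had 549, 669, 628 and 662 counts and 22.0 ± 1.66 TPM. BBX21 and BBX22 were both lowest in replicate 1, and their log2 ratio of 1.20 ± 0.04 was close to constant. The adjusted chi-square p-values were 0.00118 for BBX21, 0.0307 for BBX22, 0.00954 for BBX24 and 0.000227 for BBX25. BBX31 (AT3G21890) had 56, 57, 46 and 43 counts and 2.83 ± 0.392 TPM and did not pass (0.496).

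ELIP1 and ELIP2, chloroplast proteins that protect against excess light, differed in the same direction in every library. ELIP2 (AT4G14690) had 456, 443, 452 and 363 counts and 28.8 ± 2.84 TPM, lowest in replicate 4. ELIP1 (AT3G22840) had 241, 265, 252 and 237 counts and 14.7 ± 0.389 TPM, and the log2 ELIP1/ELIP2 ratio was -0.97 ± 0.13. ELIP2 varied beyond counting error and ELIP1 did not pass (adjusted chi-square p = 0.0111 and 0.821). HLS1 (AT4G37580), which maintains the apical hook of dark-grown seedlings, had 127, 138, 128 and 163 counts and 4.44 ± 0.585 TPM and did not pass either (0.181).

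Across 19 pairs of related members, 16 log2 TPM ratios had 1 sign in all 4 libraries. An exact two-sided sign-flip permutation test gave p = 0.125 for each of those 16, the smallest value that 4 libraries allow, since 2 of 16 sign patterns are as extreme, so the design cannot reach 0.05. The mixed pairs were PHYC/PHYE, PIF3/PIF7 and RUP1/RUP2.

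**Figure D2:**
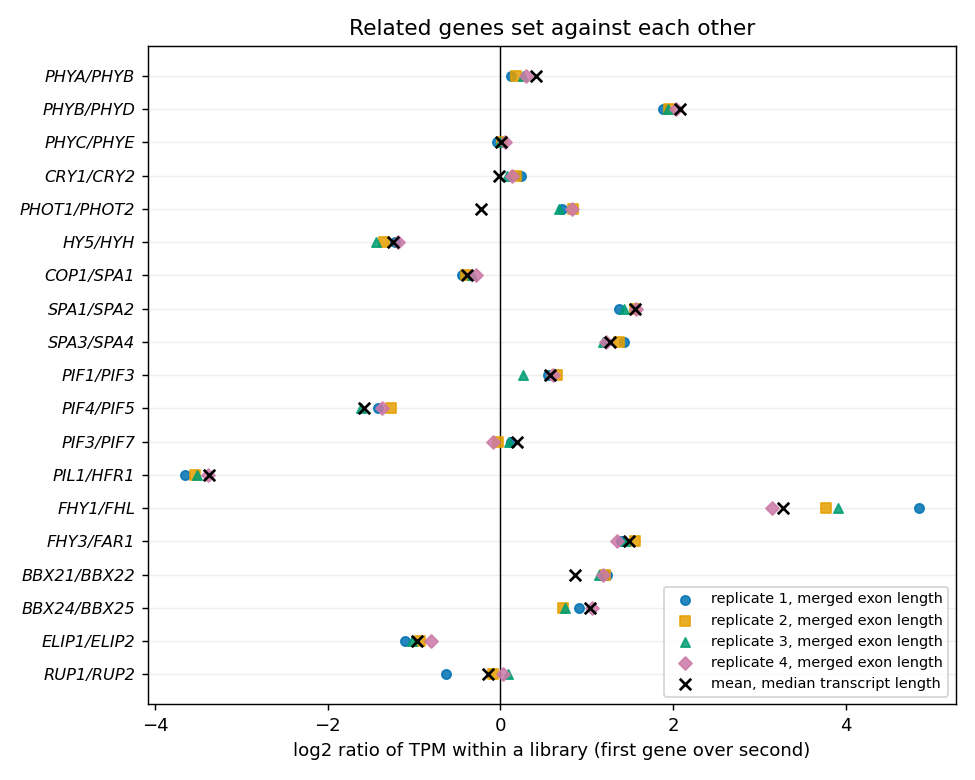
Log2 ratio of TPM within each library for 19 pairs of related members, with a point per library and a cross at the mean found with median transcript lengths. The FHY1/FHL ratio spreads from 3.15 to 4.84, and the PHYC/PHYE, PIF3/PIF7 and RUP1/RUP2 points fall on both sides of 0.

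Replicate 1 was the highest library for many of the members. Of the 42 members, 22 had their highest CPM in replicate 1, against 28.8% of all genes past the filter, and 7 had their lowest there, against 28.6%. Replicates 2, 3 and 4 were highest for 5, 6 and 9 members, against 22.8%, 26.4% and 22.0% of all genes. The 22 included 5 of 5 phytochromes, 3 of 3 of the phototropins with NPH3, and 5 of 6 PIFs. After adjustment for transcript length these became 3 of 5, 3 of 3 and 3 of 6, with PHYA lowest in replicate 1, PHYB highest in replicate 2, and PIF3 and PIF5 highest in replicate 3. Before that adjustment, replicate 1 was highest for 3 of 6 in the COP1/SPA/DET1 class, 1 of 3 cryptochromes and 1 of 5 BBX genes. It was highest for 2 of 3 among UVR8, RUP1 and RUP2, for 1 of 2 ELIPs, and for LAF1 but not HFR1. None of HY5, HYH, FHY1, FHL, FHY3, FAR1 and HLS1 was highest in it. Of the 24 called members, 14 were highest in replicate 1 and 6 were lowest in it, namely CRY3, RUP1, HYH, FHL, BBX21 and BBX22. Of the 8857 genes called over the whole table, 2590 were highest in replicate 1 and 2904 were lowest in it. Among the 34 other light signalling genes past the filter, described below, 10 were highest in replicate 1 and 13 were lowest in it. The median member stood 0.05 above its own mean in replicate 1 and at -0.02, 0.00 and -0.04 in replicates 2 to 4 (log2 CPM), while the median over all genes rounded to 0.00 in each. As a mean over members the values in replicates 1 and 2 were 0.00919 and 0.00442, so the first was smaller and the second turned sign. In replicate 3 the median turned to -0.0187 with plain library totals. In replicate 4 the median was -0.0154 with plain library totals and -0.0167 without replicate 1, and in replicate 2 it was -0.000977 without replicate 1.

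**Figure D3:**
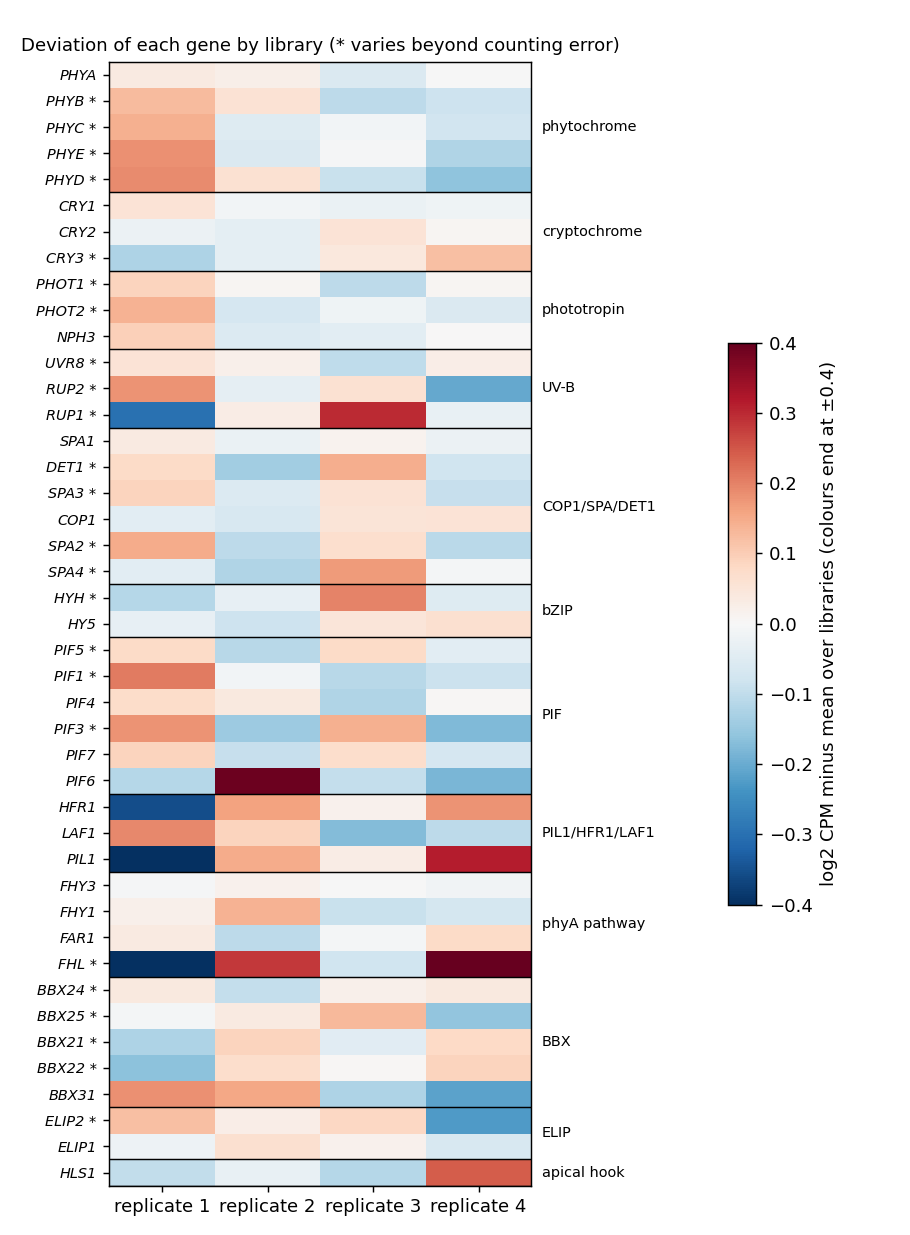
Log2 CPM of each member minus its mean over the 4 libraries, by role (rows) and library (columns), red above and blue below the mean, with the colour scale limited as marked and an asterisk at members that varied beyond counting error. The phytochromes and phototropins are above 0 in replicate 1, and FHL has the lowest value, -0.90 in replicate 1.

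Transcript length moved with the same pattern. Of all genes past the filter with merged exons of 3000 bases or more, 49.8% were highest in replicate 1, against 19.7% of those under 1000 bases. Of the 22 members of 2000 bases or more, 17 (77.3%) were highest in replicate 1, against 38.0% of all genes of that length. Of the 20 shorter members, 5 (25.0%) were, against 22.7%. With library sizes adjusted for length in 20 classes, an alternative chosen after seeing the data, 16 members were highest in replicate 1 against 28.3% of all genes, and 13 in replicate 3 against 25.6%. The 13 included 6 of 6 in the COP1/SPA/DET1 class. Before the adjustment, 2 of 6 in that class were highest in replicate 3 and 3 of 6 in replicate 1. The same test then called 23 members against 40.8% of genes, 22 of them shared, with PHYC and PHYD lost and CRY2 gained. What part of the members' variation length accounts for was not tested.

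**Figure D4:**
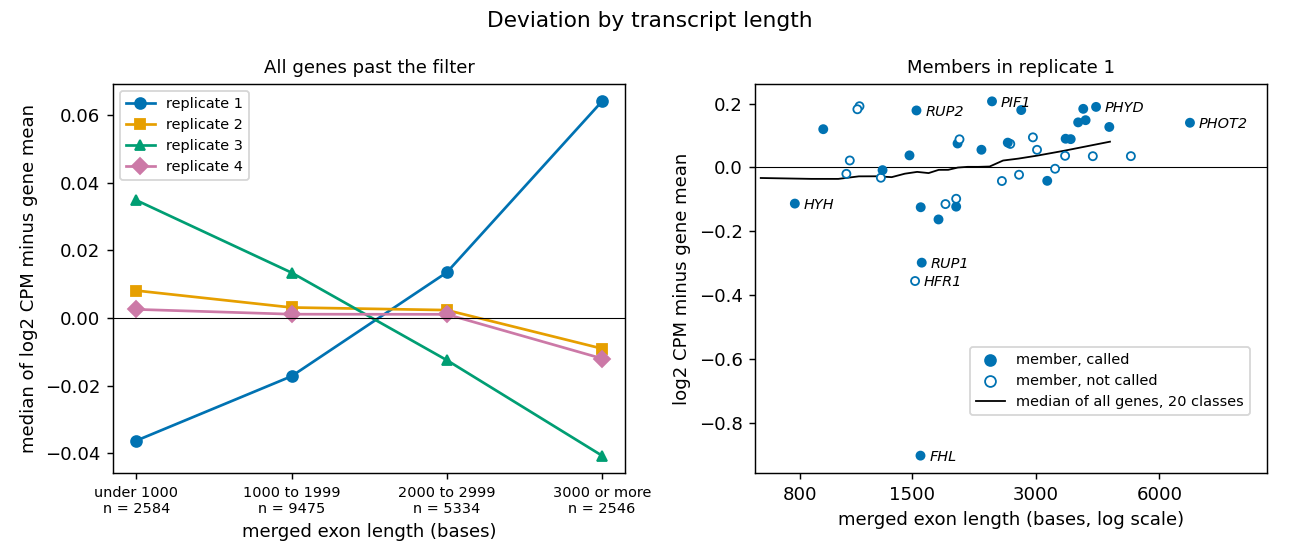
Left, median deviation of log2 CPM from the gene mean for all genes past the filter in 4 classes of merged exon length, 1 line per library. Right, the same deviation in replicate 1 for each of the 42 members against merged exon length on a log axis, filled where the chi-square test called the member, with the median of all genes in 20 length classes as a line. Long genes lie above 0 in replicate 1, FHL lies lowest at -0.90, and the median of all genes of 3000 bases or more is 0.06.

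The biological coefficient of variation (BCV), edgeR's estimate of spread between replicates beyond counting error, exceeded the trend for genes of like expression in 17 of 42 members, against 34.1% of all genes. The largest excess was that of FHL, with a BCV of 0.235 against a trend of 0.187, followed by RUP1 with 0.111 against 0.0940. The median member lay at the trend, with a difference of -0.000668 against -0.00368 for all genes. FHY3 lay below it, at 0.0515 against 0.0599.

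**Figure D5:**
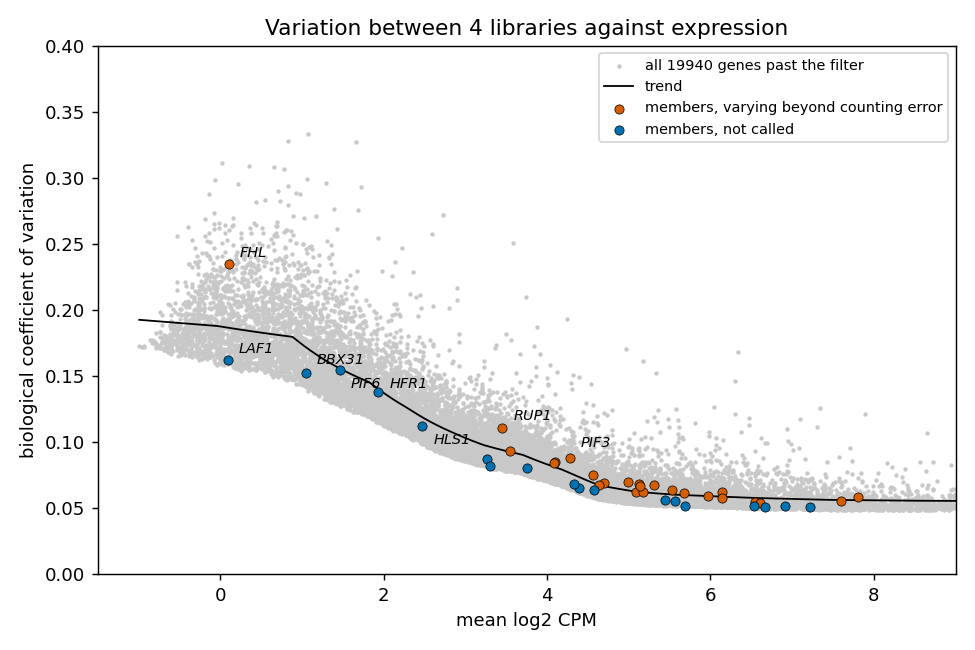
BCV of the 42 members (orange where called by the chi-square test, blue where not) and of all genes past the filter (grey) against mean log2 CPM, with edgeR's trend as a line and genes beyond the axes not drawn. FHL at 0.235 and RUP1 at 0.111 stand above the trend, and FHY3 at 0.0515 lies below it.

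Other genes of the pathway were taken as a list of 37, of which 34 could be tested. They include the partners of the COP1 ligase, kinases and regulators of photoreceptors, and further BBX and shade genes. The test called 12 of them (35.3%), against the same 42.8% of all genes. Among those called, BBX32, a B-box protein that opposes HY5 action, had the widest range, with 102, 75, 152 and 90 counts. AT3G52740 had 218, 309, 373 and 266 counts, and BBX20, a partner of HY5, had 133, 184, 220 and 186. All these were highest in replicate 3. So were 15 of the 34 genes of the list past the filter, against 26.4% of all genes past it. Of the 12 called, 7 were highest in replicate 3, against 2522 of the 8857 genes called over the whole table. Of the 42 members, 6 were highest in replicate 3. AT3G44450, also highest in replicate 3, had 297, 281, 322 and 237 counts. PAR1, an HLH protein that restrains shade growth, had 160, 124, 125 and 160. The highest of the list was RPT2, a phototropin signalling protein, with 9448, 10237, 10790 and 9996 counts and 250.2 ± 8.77 TPM. The lowest was CIB1, a CRY2 partner, with 0 counts in every library, where 3 counts would correspond to between 0.116 and 0.120 CPM. That limit covers counting error alone. BBX23 had 3, 0, 0 and 0 counts and AT4G34550 had 5, 10, 9 and 8, and neither could be tested.

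Reads from exon bases that neighbouring genes share may have been counted for another gene or left out. The strand setting of the counting is not given in the sources used here. The exons of 11 members overlap those of another gene, 10 on the opposite strand and PHYE on its own strand over 60 bases. Beside those of PHOT2, PIF6 and LAF1, the overlaps were of 318 exon bases for PIF7, 267 for BBX24, 135 for SPA3, 134 for PIF1 and fewer for the rest. The partner gene of BBX24 had 0 counts in every library and that of PIF1 had 0, 2, 0 and 0. The longest transcript of each member was aligned to those of other genes on the same strand. No alignment of 50 bases or more reached 90% identity over its whole length, and the highest was 89.3%. Shorter stretches within an alignment were not examined.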

How the data were processed

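Poly(A)-selected RNA of 4 libraries was sequenced after a directional kit. The authors deposited a table of raw counts, made with HISAT2 2.1.0 and featureCounts 1.6.0 on TAIR10 per the submitters' processing notes. How strand and multiply mapped reads were treated, and the annotation release, is not given in the sources used here. Of the 37885 identifiers, 37882 matched TAIR10.1 (RefSeq), which supplied positions, lengths and promoters; counts were never reassigned.

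CPM rest on TMM-scaled library totals from edgeR 4.0.16 under R 4.3.3. TPM used the count plus 0.5 over merged exon length. The edgeR expression filter (minimum count 10) kept 19940 genes, and an intercept-only model gave the BCV and its trend. The chi-square test of homogeneity covered genes with at least 10 expected counts in every library, with Benjamini-Hochberg adjustment at 0.05, and was tested on simulated data. Overlap in sequence was searched with BLAST 2.17.0. Members and lists were chosen with earlier results of these data known. Every member was given a level, with counts for members that were called, described in a pair, at the ends of a class or outside the filter. Of the other light genes, the 5 called genes with the widest CPM range and the highest and lowest by TPM were named. Alternatives were plain totals, DESeq2 1.42.0 size factors, other minima, pseudocounts and lengths, and leaving out each library.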

Additional observations from a re-analysis of the deposited data

Results flagged for a closer look

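Of the 43 members, 3 had a library whose gap to the nearest of the others took up more of the group's range than Dixon's 95% critical value for 4 samples, and chance gives about 1 in 20. For CRY1 the ratio was 0.847, with 154 CPM in replicate 1 and 146 to 147 CPM in the others. For PIF6 it was 0.872, with 3.48 CPM in replicate 2 and 2.33 to 2.48 CPM in the others, and the noncoding gene on its opposite strand was lowest in replicate 2, at 12 counts. The summed CPM of the 5 seed genes was 116 in that library and 4.95 to 7.40 in the others, and its part in the PIF6 value was not tested. For BBX24 it was 0.850, with 90.8 CPM in replicate 2 and 98.3 to 99.6 CPM in the others.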

How the results depend on the processing

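The number of members varying beyond counting error was between 13 (without replicate 1) and 22 when a library was left out, and between 23 and 27 under the other settings. That of the other light genes was between 7 (without replicate 1) and 11, against 12. Plain library totals added calls for CRY1, NPH3 and PHYA, and a minimum of 30 expected counts left FHL untested. Members above the BCV trend numbered 12 to 22 when a library was left out. The median level (4.48) was 4.43 with no filter and 4.55 with median transcript length, an alternative chosen after seeing the data. The median deviation in replicate 1 (0.05) was 0.00919 as a mean over members, that in replicate 2 (-0.02) turned to 0.00442 as a mean, and that in replicate 3 turned to -0.0187 with plain totals; with a library left out these lay between 0.04 and 0.05, -0.03 and -0.000977, and 0.00156 and 0.01. That in replicate 4 (-0.04) lay between -0.0368 and -0.0167 (without replicate 1) and was -0.0154 with plain totals. PHYC/PHYE turned to -0.0357 without length and lay between -0.00884 (without replicate 4) and 0.0196 with a library left out, CRY1/CRY2 turned to -0.0163 and PHOT1/PHOT2 to -0.23 with median transcript length, PHOT1/PHOT2 to -0.20 without length, and RUP1/RUP2 to 0.00953 without replicate 1. PIF3/PIF7 lay between -0.00322 (without replicate 1) and 0.0643 with a library left out. Where length is the setting, its change is the cause by construction; otherwise the cause was not tested. No paired analysis was possible because the libraries form 1 group. Members under about 30 counts in most libraries (PIL1, LAF1, and FHL, which reached 38 in replicate 4) are limited by depth.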
